A study of Mus musculus with 30 samples.

Results

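The tripartite motif (TRIM) family was taken as every gene whose symbol begins with Trim and a digit on probe sets annotated with 1 gene symbol, which gave 51 genes of the 17097 on the array. Each gene was read from its brightest probe set, by the mean of all 30 arrays, and 20 of the 51 had more than 1 probe set. A further 5 TRIM probe sets carried several symbols, 4 for Trim60 and Trim61 together and 1 for Trim3 and Eef2, and were left out. RNA was compared between mice lacking Clpp, the protease subunit of the mitochondrial ClpXP complex, and their wild-type littermates, all on a C57BL/6 background. The tissues were brain, heart, skeletal muscle, liver and testis, each with 3 knockout and 3 wild-type arrays, 10 groups in all. No group was labelled as treated, and age, sex and how the Clpp allele was disrupted are not given in the sources used here. The labels do not say whether arrays of a group came from separate animals or whether 1 animal gave several tissues, so the p-values measure the spread between these arrays, which may be technical.

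Most TRIM proteins have a RING domain, B-box zinc fingers and a coiled coil, and most act as ubiquitin ligases whose C-terminal domain selects the substrate. Several are induced by type I interferon and take part in antiviral defence, and mice carry a cluster of Trim5, Trim12, Trim30 and Trim34 genes that has expanded differently from that of primates. Other members serve sarcomere turnover in striated muscle, axons in neurons, chromatin silencing, or the formation of sperm.

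Values are log2 expression levels, which ran from 1.73 to 14.07, with array medians between 3.24 and 3.38. A level under 4 is called dim here, because it lies close to those medians, and levels of different genes are not compared, since each probe set has its own brightness. Clpp itself had group means of 3.11 to 3.65 in the knockout tissues and 6.38 to 9.18 in the wild type, and its highest knockout array, at 3.99, lay below its lowest wild-type array, at 5.88. Wild-type muscle replicate 1 carried sperm transcripts, with the protamine Prm1 at 8.11 against 2.93 to 3.26 on the other 5 muscle arrays. Wild-type testis replicate 3 carried the epididymal transcript Lcn5 at 11.7, against 2.53 to 2.83 on the other 5 testis arrays. A gene was called changed at an adjusted p below 0.05, from limma with Benjamini-Hochberg adjustment over all 17097 genes, and adjusted p-values below are of this kind.

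The first question was where TRIM genes are expressed in the wild type. The level of 45 members differed between the 5 wild-type tissues in limma's F test, 88.2% of members, where 87.9% of all genes were called. The highest wild-type mean fell in testis for 18 members, in brain for 9, and in liver, muscle and heart for 8 each. A mean of at least 6 in all 5 wild-type tissues was reached by 5 members, while 9 were dim in all 10 groups, 17.6% of members against 23.2% of all genes. To be called higher or lower in 1 tissue, a gene also had to differ by at least 1 from the mean of the other 4 wild-type tissues. Differences given below as above the other tissues are from that mean, and a single other tissue can be as high or higher.

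**Figure D1:**
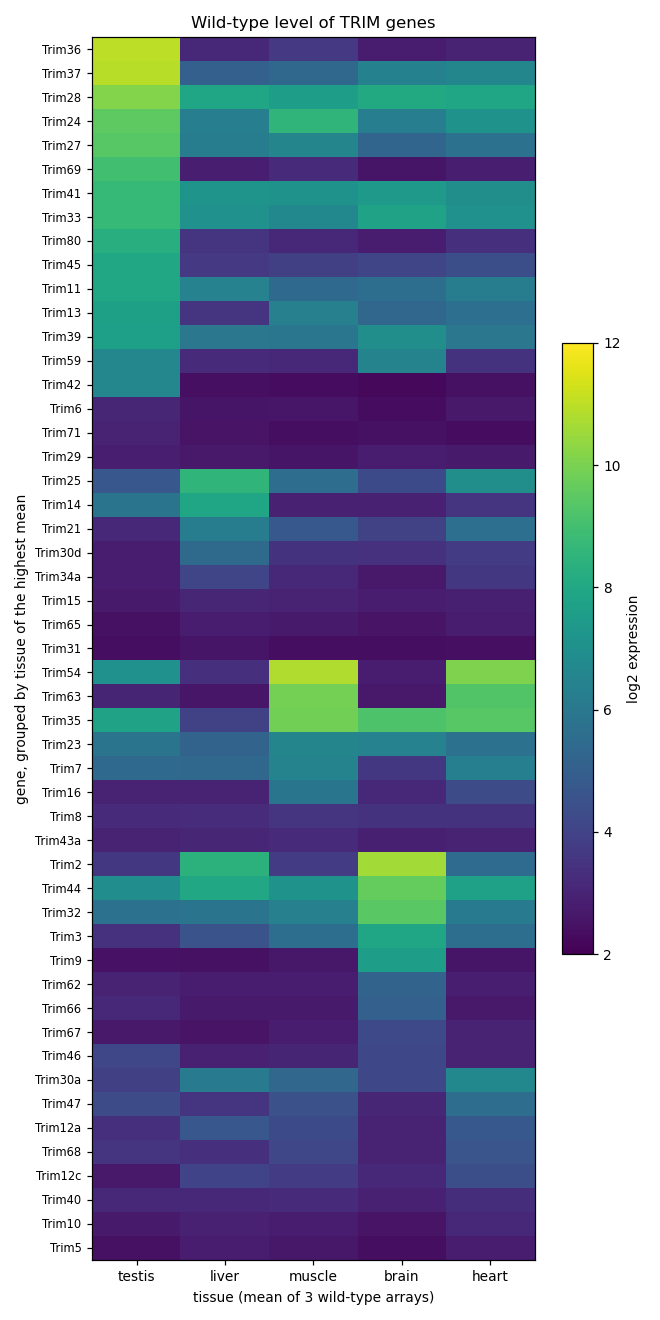
Mean log2 expression of the 51 TRIM genes (rows, grouped by the tissue of the highest mean) over 3 wild-type arrays in each of 5 tissues (columns), with colour giving the level. Trim36 and Trim37 reach means of 11.0 and 10.9 in testis, Trim54 reaches 10.8 in muscle, and Trim2 reaches 10.6 in brain.

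In testis, 16 members were higher, with 21.6% of all genes called higher there, and 12 were lower, with 24% of all genes called lower. Trim36, a ligase known from the acrosome of sperm, had a wild-type testis mean of 11.0 ± 0.0759 (SD, n = 3) and stood 7.87 ± 0.29 (SE) above the other tissues. Its next highest wild-type mean was 3.66 in muscle, where replicate 1 read 5.13 and replicates 2 and 3 read 2.87 and 2.98; the share of the sperm transcripts of replicate 1 in that value was not tested. Trim69 followed at 6.09 ± 0.15 above the other tissues, Trim80 at 5.11 ± 0.15, Trim37, a ligase that limits centriole duplication, at 5.07 ± 0.15, and Trim42 at 4.26 ± 0.12. Trim54, best known as a microtubule-binding ligase of striated muscle, was also measured in wild-type testis, with a mean of 7.05 ± 0.32 (SD, n = 3).

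Muscle and heart shared their leading TRIM genes. In muscle, 6 members were higher and 11 lower, where 11.5% and 17.8% of all genes were called. In heart, 10 were higher and 8 lower, where 12.4% and 15.1% of all genes were called. Trim63, the ligase also known as MuRF1 that marks sarcomere proteins for degradation, stood 5.49 ± 0.14 (SE) above the other tissues in muscle and 4.73 ± 0.14 in heart. Trim54 stood 4.97 ± 0.15 above in muscle and 4.07 ± 0.15 in heart. Trim35 was 2.30 ± 0.14 above in muscle and 1.69 ± 0.14 in heart. Trim16 was 2.52 ± 0.18 above in muscle, from a wild-type mean of 5.88. Of the members with a mean of at least 6 there, Trim7, a ligase that binds glycogenin, was 1.31 ± 0.17 above, but without wild-type muscle replicate 3 its difference was 0.99 and under the limit of 1. Trim24, a transcriptional cofactor, was 1.25 ± 0.11 above in muscle. As the mean of all probe sets of a gene, the differences were 0.62 for Trim7 and 0.80 for Trim24 in muscle and 0.63 for Trim35 in heart, all under 1. Heart also stood above the mean of the other 4 tissues for Trim30a, by 1.79 ± 0.14, and for Trim25, by 1.16 ± 0.11. The wild-type mean of Trim25 was higher in liver, at 8.53, than in heart, at 6.94.

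In brain, 10 members were higher and 14 lower, where 16% and 20.5% of all genes were called. Trim2, a ligase for the neurofilament light chain, led with 5.30 ± 0.34 (SE) above the other tissues. Its wild-type testis arrays read 2.71, 2.76 and 5.34, and the high one is the array with epididymal transcripts; their part in that value was not tested. Trim9, a ligase of axon branching, stood 5.06 ± 0.15 above, Trim32, a ligase mutated in a limb-girdle muscular dystrophy, 3.41 ± 0.10, Trim3 3.09 ± 0.13 and Trim59 2.38 ± 0.12. Trim59 had a wild-type mean of 6.49 in brain and a higher mean of 6.62 in testis.

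In liver, 7 members were higher and 15 lower, where 13.2% and 20.9% of all genes were called. Of the 5 with the largest differences among members with a wild-type liver mean of at least 6, 4 are on the list of interferon-induced TRIM genes. Trim14, an adaptor of antiviral signalling, was 4.07 ± 0.15 (SE) above the other tissues, Trim25 3.16 ± 0.11, Trim21, the cytosolic antibody receptor, 1.80 ± 0.17, and Trim30a 1.09 ± 0.14. Trim2 was also among these 5 at 2.56 ± 0.34. Trim30d, with a lower liver mean of 5.45, was 2.08 ± 0.17 above. Without wild-type liver replicate 2, the Trim30a difference was 0.92, and as the mean of its probe sets it was 0.74, so that it no longer reached 1.

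The knockout was then compared with the wild type in each tissue. Outside testis, 6 of the 51 members were called in at least 1 tissue, and Trim30a alone was called in all 4. No share of all genes is given for these counts, and the shares in each tissue follow. In brain, 3 members were called, 5.88% where 0.415% of all genes were; all 3 rose, with 0.234% of all genes called higher and 0.181% lower. In heart, 4 were called, 7.84% against 2.18%; 3 rose and 1 fell, where 1.11% and 1.07% of all genes did. In liver, 2 were called, 3.92% against 2.42%, and both rose, where 0.912% of all genes rose and 1.5% fell. In muscle 1 was called, 1.96% against 1.54%, and it rose, where 0.778% of all genes rose and 0.76% fell; the muscle share lay near that of all genes. At an unadjusted p below 0.05, limma placed 7, 4, 9 and 9 members higher and 2, 4, 2 and 4 lower in liver, muscle, brain and heart. The share of all genes at that unadjusted threshold is not given here, so these counts are not read as a result about the family. The median difference over the 51 members was 0.02 in liver, -0.01 in muscle, 0.06 in brain and 0.02 in heart. Over all genes it was 0.00, 0.00, 0.02 and -0.01. All of the members called in these 4 tissues belong to the 25 measured genes of the class with a C-terminal SPRY domain, a substrate-binding fold. Without brain knockout replicate 1, 2 or 3 the brain count was 1; without heart knockout replicate 2 or wild-type replicate 2 the heart count was 2, and without heart knockout replicate 3 or wild-type replicate 3 it was 1. These are whole tissues, in which a change in the number of cells of a type and a change in RNA per cell cannot be told apart.

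**Figure D2:**
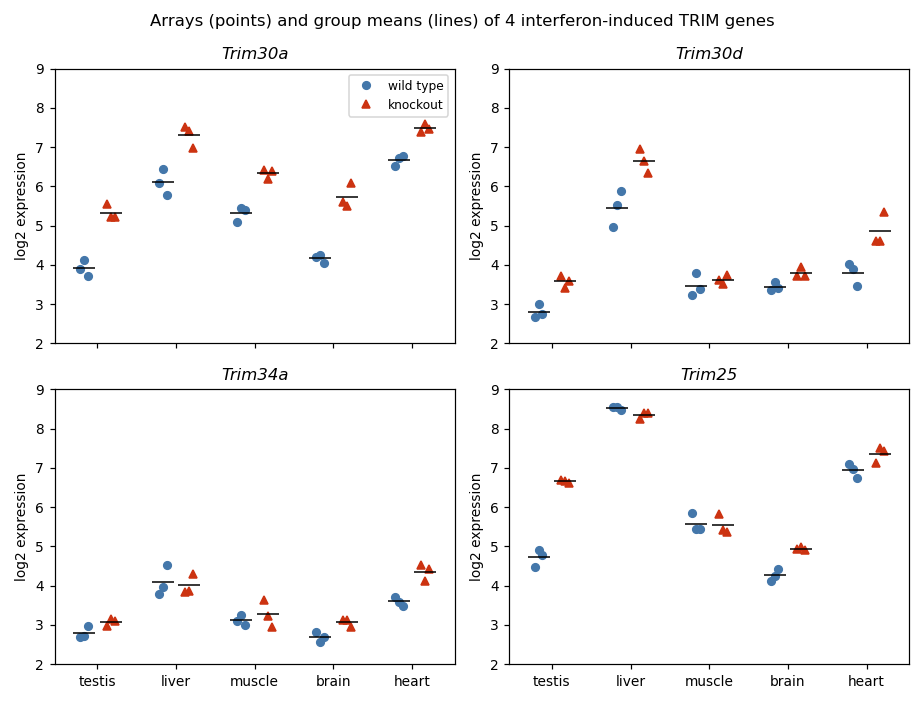
Log2 expression of Trim30a, Trim30d, Trim34a and Trim25 on each array (blue circles wild type, red triangles knockout, black lines group means of 3 arrays) in 5 tissues. The knockout arrays of Trim30a lie above the wild-type arrays in every tissue, whereas those of Trim30d do so in testis, liver, brain and heart and overlap in muscle.

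Trim30a, an interferon-induced member known to dampen Toll-like receptor signalling, was higher in the knockout in every tissue. In brain its knockout arrays read 5.60, 5.49 and 6.10 and its wild-type arrays 4.21, 4.26 and 4.05. In liver they read 7.52, 7.42 and 6.99 against 6.10, 6.45 and 5.78. In muscle they read 6.41, 6.18 and 6.39 against 5.10, 5.45 and 5.40. The lowest knockout array lay above the highest wild-type array in each of these tissues. Heart had the highest wild-type level, with 7.39, 7.59 and 7.46 against 6.51, 6.71 and 6.78, and testis the lowest, with 5.54, 5.23 and 5.22 against 3.89, 4.12 and 3.71. The groups did not overlap there either.

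Trim30a rose by 1.56 ± 0.17 (SE) in brain (limma adjusted p = 5.03e-06), 1.42 ± 0.17 in testis (adjusted p = 8.55e-08), 1.20 ± 0.17 in liver (adjusted p = 0.00011) and 1.01 ± 0.17 in muscle (adjusted p = 0.0018). In heart it rose by 0.81 ± 0.17 (adjusted p = 0.00872). The mean over liver, muscle, brain and heart was 1.14 ± 0.09 (adjusted p = 1.45e-09). The F test of a difference in size between the 5 tissues did not pass (adjusted p = 0.0644). The heart call was lost without heart knockout replicate 2 (adjusted p = 0.0584) or wild-type replicate 1 (adjusted p = 0.0585), while the liver, muscle, brain and testis calls held under every omission of 1 array. With each tissue fitted on its own 6 arrays, the adjusted p was 0.111 in liver and 0.0637 in muscle, and the brain and heart calls held. A second, dimmer Trim30a probe set gave differences of 0.70 in brain, 0.80 in testis, 1.01 in liver, 0.33 in muscle and 1.04 in heart, of which those in testis, liver and heart were called when all probe sets were tested.

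Trim30a lies in a run of 10 TRIM genes on chromosome 7 with at most 1 other protein-coding gene between neighbours in the RefSeq GRCm38.p6 annotation. In order they are Trim6, Trim34a, Trim5, Trim12a, Trim34b, Trim12c, Trim30b, Trim30c, Trim30a and Trim30d, and 7 of them were measured. The promoters of the 3 called outside testis are shown because they share an element, and that of Trim25, on chromosome 11, because the search did not find it there. Each is the RefSeq window of 250 bases before and 50 after a start, in GRCm38.p6, 5′ to 3′ in the direction of transcription. Capitals mark the core of the interferon-stimulated response element, searched on both strands as GAAA, any 2 bases and GAAA again. The search allowed no mismatch, so a near match, such as that in the Trim25 window, was not counted. The windows are chr7:104465144-104465443 (minus strand) for Trim30a, chr7:104507800-104508099 (minus) for Trim30d, chr7:104244207-104244506 (plus) for Trim34a and chr11:88999153-88999452 (plus) for Trim25.
Trim30a: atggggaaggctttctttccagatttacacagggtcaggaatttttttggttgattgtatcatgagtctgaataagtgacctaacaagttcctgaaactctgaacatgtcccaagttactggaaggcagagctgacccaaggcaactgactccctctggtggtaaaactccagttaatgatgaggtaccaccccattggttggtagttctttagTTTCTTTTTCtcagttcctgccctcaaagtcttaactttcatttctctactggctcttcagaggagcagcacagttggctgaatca
Trim30d: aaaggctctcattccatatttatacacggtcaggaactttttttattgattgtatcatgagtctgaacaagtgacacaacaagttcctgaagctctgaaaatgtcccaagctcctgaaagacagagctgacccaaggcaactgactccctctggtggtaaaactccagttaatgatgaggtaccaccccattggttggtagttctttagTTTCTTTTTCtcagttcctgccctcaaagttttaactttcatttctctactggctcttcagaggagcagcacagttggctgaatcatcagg
Trim34a: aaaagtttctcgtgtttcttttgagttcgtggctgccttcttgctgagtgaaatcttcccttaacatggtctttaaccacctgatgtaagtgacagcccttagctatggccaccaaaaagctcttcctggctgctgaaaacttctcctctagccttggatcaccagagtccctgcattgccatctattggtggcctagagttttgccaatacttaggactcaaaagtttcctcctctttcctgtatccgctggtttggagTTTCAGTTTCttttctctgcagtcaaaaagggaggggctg
Trim25: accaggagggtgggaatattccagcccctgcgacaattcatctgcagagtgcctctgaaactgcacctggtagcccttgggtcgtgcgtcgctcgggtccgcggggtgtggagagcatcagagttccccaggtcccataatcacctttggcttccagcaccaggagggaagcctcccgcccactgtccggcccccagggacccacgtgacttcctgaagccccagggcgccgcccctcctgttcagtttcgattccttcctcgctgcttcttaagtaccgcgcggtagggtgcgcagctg

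In Trim30a and Trim30d the capitals begin 36 and 41 bases before the start, and in Trim34a they begin 10 bases after it. The Trim30a and Trim30d windows matched at 276 of 295 aligned bases, 93.6%. A second RefSeq start of Trim30a also has the element. RefSeq windows were found for 41 of the 51 members, 55 windows in all, and 9 of these held the core, 16.4%, where 3.44% of 32851 windows of all genes held it. On the list of interferon-induced TRIM genes it was in 8 of 10 windows, those of Trim5, Trim12a, Trim12c, Trim21, Trim30d and Trim34a and both of Trim30a, and in neither that of Trim6 nor that of Trim25. Most of these genes are neighbours in the same run, so the windows are not independent, and the share was not tested. The remaining member window with the core was 1 of 5 of Trim2. Among type I interferon-stimulated genes outside the family, 12 of 32 windows held the core, 37.5%. The gamma-activated site, searched on both strands as TTC, any 3 bases and GAA, was in 5 member windows, 9.09%, against 8.3% of all windows, and in 0 of the 10 on the interferon-induced list. Of the genes with the core, Trim2, Trim5, Trim12a, Trim12c and Trim21 were not called in any tissue outside testis. Trim25, without an exact match to the core, was called in brain. Probe sets of such similar genes can share signal, so how far the values of Trim30a and Trim30d are separate is uncertain.

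Trim30d, a paralog of Trim30a, rose in liver, heart and testis. Its liver arrays read 6.96, 6.65 and 6.34 in the knockout and 4.96, 5.52 and 5.88 in the wild type. Its heart arrays read 4.60, 4.62 and 5.35 against 4.02, 3.91 and 3.46. The groups were separate in both tissues, with the wild type scattering widely in liver. The rise was 1.20 ± 0.21 (SE) in liver (limma adjusted p = 0.00139), 1.06 ± 0.21 in heart (adjusted p = 0.00585) and 0.77 ± 0.21 in testis (adjusted p = 0.00307). Differences of 0.15 ± 0.21 in muscle and 0.34 ± 0.21 in brain did not pass, and the effect differed between the 5 tissues (F test adjusted p = 0.0177). The heart call was lost without heart knockout replicate 3 (adjusted p = 0.0654) or wild-type replicate 3 (adjusted p = 0.0531). The 3 probe sets of Trim30d gave 0.88, 1.07 and 1.20 in liver, from the dimmest to the brightest. In the same order they gave 0.21, 1.11 and 1.06 in heart and -0.04, 0.73 and 0.77 in testis. The dimmest was not called in heart or testis when limma tested all probe sets (adjusted p = 0.741 and 0.876).

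Trim34a, from the other end of the run, rose in heart. Its arrays there read 4.52, 4.13 and 4.41 in the knockout and 3.72, 3.59 and 3.49 in the wild type, with no overlap and with the wild type dim. The rise was 0.75 ± 0.17 (SE; limma adjusted p = 0.015), and it was lost without heart knockout replicate 3, wild-type replicate 2 or wild-type replicate 3 (adjusted p = 0.0551 to 0.0769). Differences in liver, muscle and brain were -0.08, 0.15 and 0.38, each with an SE of 0.17, and none passed. Its mean over these 4 tissues was 0.30 ± 0.09 (adjusted p = 0.0462), a call that did not hold in 20 of the 30 fits that left out 1 array (adjusted p up to 0.0817), 16 of them without an array of these 4 tissues and 4 without a testis array.

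Trim25, the ligase that adds ubiquitin chains to the RNA sensor RIG-I, rose in brain and testis. Its brain arrays read 4.93, 4.99 and 4.92 in the knockout and 4.13, 4.23 and 4.42 in the wild type, so the groups were close but separate. The rise was 0.68 ± 0.14 (SE; limma adjusted p = 0.0166), and it was lost without brain knockout replicate 1, 2 or 3 or wild-type replicate 1 (adjusted p = 0.052 to 0.0924). The difference was 0.42 ± 0.14 in heart (adjusted p = 0.127), -0.04 ± 0.14 in muscle and -0.19 ± 0.14 in liver, the tissue with its highest wild-type mean. In a fit without testis, Trim25 had the smallest p of the members for a difference in effect between the other 4 tissues, and it did not pass (F test adjusted p = 0.0515). No member passed that test, in which 1.43% of all genes were called. The unadjusted p was below 0.05 for 14 members, and the share of all genes at that threshold is not given here.

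Of 12 measured genes of the RIG-I pathway, which TRIM ligases act on, 2 rose in liver, 1 in muscle, 1 in brain and 2 in heart, and 0 fell. At an unadjusted p below 0.05, limma placed 0 of the 12 lower in any of these tissues. In heart these were Ifih1, the sensor MDA5, by 1.43 ± 0.21 (SE; limma adjusted p = 0.000201), and Ddx58, which encodes RIG-I, by 1.37 ± 0.21 (adjusted p = 0.000299). In brain, where Trim25 rose, the called gene was Zc3hav1, an antiviral zinc finger protein, by 0.99 ± 0.19 (limma adjusted p = 0.0123). Ifih1, Ddx58 and Dhx58, which was called in liver, are also counted among the type I interferon-stimulated genes below.

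**Figure D3:**
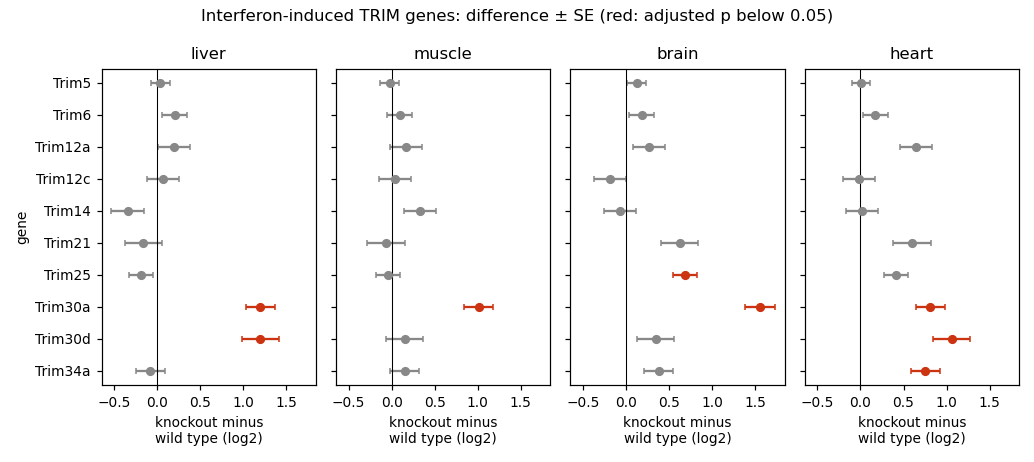
Knockout minus wild type on the log2 scale (points, with bars of 1 SE from the fit over 30 arrays) for the 10 measured interferon-induced TRIM genes in liver, muscle, brain and heart. Red marks an adjusted p below 0.05, reached by Trim30a in every panel, by Trim30d in liver and heart, by Trim25 in brain and by Trim34a in heart.

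Of the 15 genes on the interferon-induced TRIM list, 10 were measured. Those that rose numbered 2 in liver, 1 in muscle, 2 in brain and 3 in heart, and 0 fell; at an unadjusted p below 0.05, limma placed none of the 10 lower in these tissues. Median differences of the list were 0.05, 0.12, 0.31 and 0.51, against 0.00, 0.00, 0.02 and -0.01 over all genes. Beside them, 15, 16, 13 and 19 of 35 measured type I interferon-stimulated genes outside the family rose in liver, muscle, brain and heart, with medians of 0.70, 0.54, 0.59 and 0.81 and 0 that fell (limma placed 1 lower at an unadjusted p below 0.05, in liver). Trim21 differed by 0.62 ± 0.22 (SE) in brain (limma adjusted p = 0.381) and 0.60 ± 0.22 in heart (adjusted p = 0.177). Trim12a differed by 0.65 ± 0.19 in heart (adjusted p = 0.0732). Differences of Trim5, Trim6, Trim12c and Trim14 in these tissues lay between -0.34 and 0.33 and none passed.

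Macrophages and microglia express many interferon-induced genes, so 15 of their markers were read beside these results. None was called in liver, muscle, brain or heart, with median differences of 0.15, 0.06, 0.30 and 0.43; at an unadjusted p below 0.05, limma placed 0, 1, 2 and 5 of them higher and 1 lower, in muscle. The log2 of their summed level was 10.1 to 10.4 on knockout and 9.98 to 10.02 on wild-type liver arrays, and 9.72 to 9.87 against 9.21 to 9.63 in brain. In heart it was 10.81 to 11.47 against 10.42 to 10.82, and in muscle 8.66 to 9.21 against 8.16 to 9.11. The knockout sums thus stood above the wild-type sums without overlap in liver and brain, and overlapped in heart and muscle. Lymphocyte markers were dim in all groups except for 1 of 12 in knockout heart, where their sum was 6.78 to 6.96 against 6.60 to 6.64 and 1 rose. The part of these cells in the TRIM differences was not tested.

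Outside the interferon-induced list, 2 members were called in 1 of the 4 tissues. Trim62, a ligase of the fungal-sensing adaptor CARD9, read 6.18, 6.30 and 6.11 on knockout and 5.68, 5.62 and 4.30 on wild-type brain arrays. Wild-type replicate 3 stood well below the others. The rise was 1.0 ± 0.22 (SE; limma adjusted p = 0.0329); without that array it was 0.55 (adjusted p = 0.0887), and without brain knockout replicate 1, 2 or 3 the adjusted p was 0.0952 to 0.173. The other 2 Trim62 probe sets, both dim, differed by 0.10 and 0.15. Trim7 read 5.73, 5.04 and 5.41 on knockout and 6.15, 6.48 and 6.33 on wild-type heart arrays, with no overlap. It fell by 0.93 ± 0.22 in heart (adjusted p = 0.0178) and was lost without knockout replicate 2 or 3 or wild-type replicate 2 or 3 (adjusted p = 0.0612 to 0.136). As the mean of all its probe sets, its heart difference was -0.32 (adjusted p = 0.189).

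In the mean over liver, muscle, brain and heart, 4 members were called, 7.84% where 4.02% of all genes were; 3 rose and 1 fell, where 1.47% and 2.55% of all genes did. The rises were those of Trim30a and Trim34a, given above, and of Trim30d, by 0.69 ± 0.11 (SE; limma adjusted p = 0.000382). Trim32 fell by 0.22 ± 0.06 (adjusted p = 0.0401), from differences of -0.37 in liver, -0.35 in muscle, -0.15 in heart and -0.03 in brain, none called alone. Its call was lost in 16 of the 30 fits that left out 1 array, each an array of these 4 tissues (adjusted p up to 0.082), and after quantile normalization the fall was 0.16 (adjusted p = 0.145). The count of 4 became 2 without muscle knockout replicate 1 or 2, muscle wild-type replicate 3, brain knockout replicate 3, brain wild-type replicate 3, or heart wild-type replicate 2 or 3.

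The 2 measured genes of the muscle TRIM list were not called in muscle or heart, nor the 6 neuronal ones in brain. Trim63 read 9.72, 9.84 and 9.48 on knockout and 10.48, 9.50 and 9.73 on wild-type muscle arrays, and the groups overlapped. Trim54 read 10.62, 10.68 and 10.52 against 10.94, 10.63 and 10.84. At an unadjusted p below 0.05, limma placed 0 of these 2 in muscle and 1, lower, in heart. Of 12 genes of the muscle atrophy programme, 0 were called in muscle, where limma placed 3 higher at an unadjusted p below 0.05, and 1, Eif4ebp1, a translation repressor, rose in heart by 0.67 ± 0.16 (SE; limma adjusted p = 0.0248). All 7 slow-fibre genes rose in muscle, and their part in the muscle values of TRIM genes was not tested. Of the 6 neuronal TRIM genes, 0 were called in brain and 1 was higher at an unadjusted p below 0.05. Trim2, for example, read 10.42, 10.45 and 10.51 on knockout and 10.60, 10.62 and 10.67 on wild-type brain arrays, a small gap with no overlap that did not pass.

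In testis, 32 members were called, 62.7% where 56.2% of all genes were called. Of these, 19 rose, 37.3% against 32.8%, and 13 fell, 25.5% against 23.4%, so the shares lay near those of all genes. Among genes with an overall mean of at least 6, 7 of 14 members rose and 4 fell, 50% and 28.6%, where 62.9% and 17.1% of such genes did. The median over all 51 members was 0.00, and over all genes 0.02. Cell markers moved at the same time. Of 8 round spermatid markers, 8 fell (median -4.09), and of 13 of elongating spermatids and sperm, 11 fell (median -3.97), while 6 of 9 meiotic spermatocyte markers (median 1.11), 5 of 8 spermatogonium markers (median 1.42), 10 of 10 Sertoli markers (median 1.85), 6 of 6 Leydig markers (median 1.62) and 12 of 15 macrophage markers (median 1.29) rose. The log2 summed level of the round spermatid markers was 8.87 to 10.2 on knockout and 12.98 to 13.43 on wild-type arrays, and that of the Sertoli markers 12.73 to 13.27 against 11.55 to 12.18. The part of cell content in the testis values of TRIM genes was not tested.

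**Figure D4:**
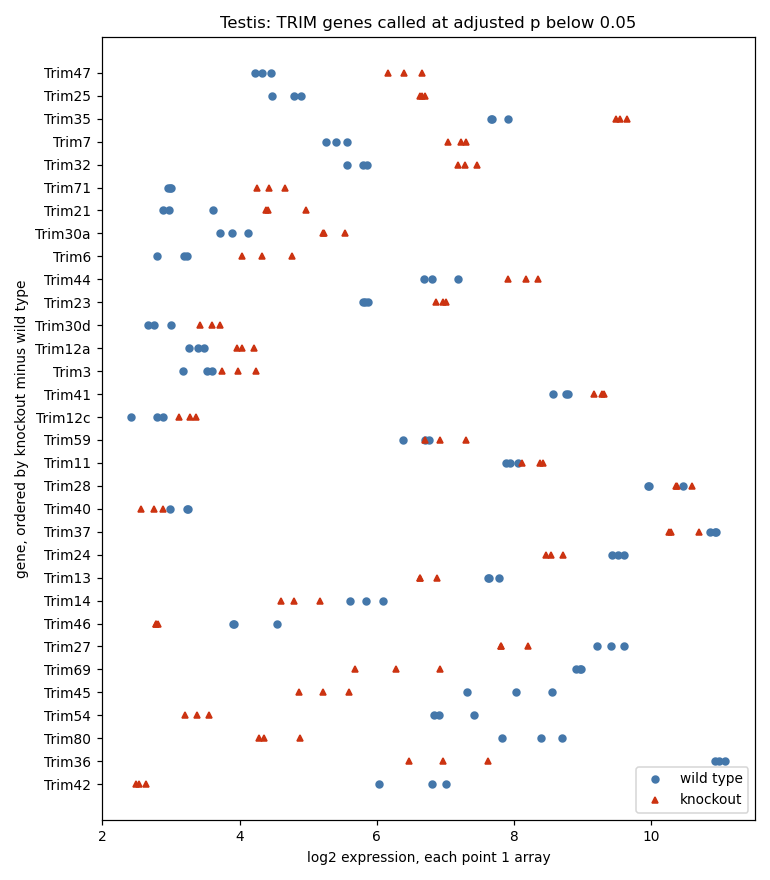
Log2 expression on each testis array (blue circles wild type, red triangles knockout, 3 each) of the 32 TRIM genes called there, ordered by the difference. The ladder runs from Trim47, at 2.07 above the wild type, to Trim42, at 4.07 below it, with the groups apart for most genes.

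The largest falls included those of 4 of the 5 leaders of the wild-type testis profile, Trim42, Trim36, Trim80 and Trim69. By domain class, 0 of the 7 measured members with a COS box, which binds microtubules, rose and 4 fell (median -1.33). Of the 25 SPRY members, 12 rose and 3 fell (median 0.28), and 3 of 4 NHL-repeat members rose (median 1.01). Over all genes in testis, 32.8% rose and 23.4% fell, and these small classes were not tested as sets. Trim42 read 7.02, 6.03 and 6.80 in the wild type and 2.53, 2.48 and 2.63 in the knockout, a fall of 4.07 ± 0.15 (SE; limma adjusted p = 1.63e-17). Trim36 read 11.09, 10.98 and 10.94 against 6.97, 6.47 and 7.62, a fall of 3.98 ± 0.37 (adjusted p = 8.83e-10). The knockout arrays of Trim42 were dim and close together, whereas those of Trim36 still stood above 6 and were spread widely. The other Trim36 probe set, with an overall mean under 4, differed by -0.24. Trim80 fell by 3.79 ± 0.19, Trim45, a repressor of MAP kinase signalling, by 2.74 ± 0.21, and Trim69 by 2.66 ± 0.19. Trim54 read 7.42, 6.83 and 6.90 against 3.55, 3.21 and 3.37, a fall of 3.67 ± 0.19 (adjusted p = 1.67e-14) to a dim level. The fall of Trim54 was a testis result: its differences in muscle and heart, where it is most abundant, did not pass, and its effect differed between tissues (F test adjusted p = 1.55e-11). Trim37, the other leader, with a wild-type testis mean of 10.9, fell by 0.50 ± 0.19 (adjusted p = 0.025), a call lost without testis knockout replicate 1 or 2 or wild-type replicate 1 or 3 (adjusted p = 0.0554 to 0.1). As the mean of its probe sets, Trim37 differed by -0.25 (adjusted p = 0.0842).

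Smaller falls were seen in Trim27, a RING ligase and transcriptional repressor first known as RFP, by 1.47 ± 0.14 (SE; limma adjusted p = 2.39e-09), Trim14 by 0.99 ± 0.19, and Trim13, an endoplasmic reticulum ligase, by 0.96 ± 0.16. Trim46, which organises axonal microtubules, fell by 1.33 ± 0.18 to a dim level. The other 2 probe sets of Trim27 were dim and differed by -0.11 and -0.15. Of 6 measured TRIM genes listed for germ cells, 4 fell (Trim27, Trim36, Trim42 and Trim69) and 1, Trim71, rose. Of the 4 chromatin members, 1 fell and 1 rose. Among all genes in testis, 23.4% fell and 32.8% rose. Trim24 fell by 0.94 ± 0.13, but as the mean of its probe sets the fall was 0.19 (limma adjusted p = 0.144). Its other 2 probe sets, with overall means under 4, differed by 0.41 and -0.04. The first of these was called higher when limma tested all probe sets (adjusted p = 0.0403), so the fall rests on 1 probe set. Trim28, the corepressor KAP1, read 10.36, 10.38 and 10.59 on knockout against 9.97, 10.47 and 9.96 on wild-type arrays, which overlap. It rose by 0.31 ± 0.12 (adjusted p = 0.0325), which did not pass without testis knockout replicate 3 or wild-type replicate 1 or 3 (adjusted p = 0.151 to 0.169).

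The largest rise was that of Trim47, which read 6.65, 6.39 and 6.16 in the knockout and 4.33, 4.22 and 4.46 in the wild type, 2.07 ± 0.22 (SE; limma adjusted p = 1.38e-08). Trim25 read 6.70, 6.66 and 6.63 against 4.48, 4.90 and 4.79 and rose by 1.94 ± 0.14 (adjusted p = 5.72e-12). Neither pair of groups overlapped. Trim35 rose by 1.80 ± 0.18 and Trim7 by 1.78 ± 0.22, the direction opposite to its heart difference (F test of the effect between tissues, adjusted p = 4.9e-07). Trim32 rose by 1.57 ± 0.12, Trim71, a regulator of stem cells and of let-7 targets, by 1.46 ± 0.12, Trim44 by 1.26 ± 0.12, Trim23, which carries a GTPase domain, by 1.12 ± 0.15, and Trim41 by 0.55 ± 0.14. Other probe sets gave 0.26 and 1.11 for Trim35, 1.46 and -0.15 for Trim7, 0.03 for Trim44, 0.47 for Trim23 and 0.72 for Trim41.

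Of the 35 measured type I interferon-stimulated genes outside the family, 17 rose in testis and 3 fell (median 0.42), where 32.8% and 23.4% of all genes did. Of the 10 interferon-induced TRIM genes, 7 rose in testis and 1, Trim14, fell. Besides Trim25, Trim30a and Trim30d, these were Trim21 by 1.44 ± 0.22 (SE; limma adjusted p = 3.02e-06), Trim6 by 1.31 ± 0.14, Trim12a by 0.69 ± 0.19 and Trim12c by 0.55 ± 0.19. The Trim12c call did not hold without testis knockout replicate 1 (adjusted p = 0.0503) or wild-type replicate 2 (adjusted p = 0.0915). Apart from Trim25, these started from dim wild-type means, 2.80 for Trim30d and 3.15 for Trim21. The second probe sets of Trim21, Trim12a and Trim12c, with overall means under 4, differed by 0.08, 0.11 and -0.04, and none was called. As the mean of its probe sets, Trim12c differed by 0.25 (limma adjusted p = 0.0679). The effect of Trim25 and Trim21 differed between the 5 tissues (F test adjusted p = 6.15e-09 and 0.000562), and that of Trim30a did not pass this test. Trim59 rose by 0.36 ± 0.15 on its brighter probe set, whereas its other probe set gave -2.20 and the mean of both -0.92, so its direction in testis is not settled. Its call was also lost without testis knockout replicate 1 or 2 or wild-type replicate 3 (adjusted p = 0.0561 to 0.289).

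Across the 5 tissues, the knockout effect differed between tissues for 29 of 51 members, 56.9%, where 52.3% of all genes were called. In the mean over all 5 tissues, 24 members were called, 47.1% where 33.6% of all genes were; 13 rose and 11 fell, where 17.1% and 16.5% of all genes did. That mean includes testis, and in the mean without testis 4 members were called. In testis alone 28 members were called, and 17 were called in no tissue. The shares of all genes for these counts are not given here. Those 17 include bright genes such as Trim33, a SMAD4-directed ligase whose group means ran from 6.58 to 8.69, and Trim39, from 5.52 to 7.64, as well as genes dim in every group such as Trim5 and Trim31.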

How the data were processed

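Total RNA was labelled and hybridised to 30 Affymetrix mouse arrays, 3 for each of 5 tissues and 2 genotypes. The deposited values are log2 expression levels of 45141 probe sets, which the authors made with RMA in R 2.14.0, per the submitters' processing notes; whether all arrays were normalized together is not stated there. Arrays carry no read depth, so their number limits the precision. Probe sets were named from the platform annotation: 28898 had 1 gene symbol, 551 several and 15692 none. The brightest probe set of each of 17097 genes was fitted with limma 3.58.1 in R 4.3.3 as 10 group means with 20 residual degrees of freedom, two-sided, with Benjamini-Hochberg adjustment over all genes in each comparison. SEs are those of this fit.

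The members and gene lists were chosen with earlier results of these data known. Genes were named if called outside testis or in the mean over 4 tissues, if among the 8 largest rises and falls in testis with a mean of at least 6 in either genotype, or if among up to 5 leading members of a wild-type tissue with a mean of at least 6 there, and members of the TRIM lists were counted and could be named; Trim37, Trim59, Trim33, Trim39, Trim31, Trim16, Trim30d in the wild-type liver, and Trim11, Trim29, Trim40 and Trim66 were added after their values were seen. Other normalizations, filters, probe set rules, priors, array weights and blocks, single tissues, and the omission of each array were tried. No 2 arrays were identical (highest correlation 0.996). The fit was tested on simulated data. The main fit did not pair arrays by replicate number. Correlations of same-numbered deviations ran from -0.127 to 0.243, and with 3 arrays a group they cannot exclude pairing. Promoters are RefSeq windows of GRCm38.p6.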

Additional observations from a re-analysis of the deposited data

Results flagged for a closer look

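For 29 of the 51 members, the knockout effect differed between the 5 tissues in limma's F test, with the adjusted p given in brackets after each gene. Of these, 12 fell in testis: Trim42 (1.61e-14), Trim80 (1.02e-12), Trim54 (1.55e-11), Trim69 (3.12e-09), Trim45 (1.52e-08), Trim36 (4.48e-07), Trim27 (6.59e-07), Trim46 (7.75e-05), Trim24 (0.000123), Trim14 (0.00175), Trim40 (0.00265) and Trim13 (0.00807). A further 14 rose in testis: Trim32 (1.95e-09), Trim25 (6.15e-09), Trim71 (5.87e-08), Trim44 (1.52e-07), Trim7 (4.9e-07), Trim35 (4.99e-07), Trim47 (2.07e-06), Trim23 (2.34e-05), Trim6 (4.66e-05), Trim21 (0.000562), Trim30d (0.0177), Trim11 (0.0223), Trim41 (0.0333) and Trim3 (0.0364). For Trim62 (0.0177) the called tissue was brain, where 1 wild-type array stood low. Trim29 (0.0204) and Trim66 (0.0249) were called in no tissue. Without testis, limma found no member whose effect differed between the other 4 tissues. At an unadjusted p below 0.05 there were 14, a threshold for which no share of all genes is given. No group holds more than 3 arrays, so single arrays were not tested as outliers.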

How the results depend on the processing

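Of the 71 called results of named genes, 1 changed direction under the 11 alternatives and the 30 omissions of 1 array: Trim59 in testis was -0.92 as the mean of all probe sets. The Trim59 call also lapsed under 5 other alternatives (adjusted p = 0.0555 to 0.172). Restricting the table to genes above the median mean removed members, and the counts of called members became 21 in testis, 1 in liver, 2 in heart, 15 in the mean over 5 tissues, 2 in the mean over 4, 11 and 15 in wild-type muscle and brain, 18 for effects that differ between tissues and 25 for wild-type levels that differ. With each tissue fitted alone, which leaves 6 arrays a fit, they became 0 in liver, 0 in muscle, 1 in brain and 1 in heart. Array weights gave 7 in heart and 10 in the mean over 4 tissues; the cause was not tested. With the replicate number as a block, heart had 2, the other 13 counts stayed within 1.5 times, and 5 named calls were lost: Trim30d in heart (adjusted p = 0.0543), Trim7 in heart (0.0776), Trim32 in the mean over 4 tissues (0.0606), and Trim28 (0.0501) and Trim37 (0.054) in testis. Omitting 1 array gave 1 to 3 in brain, 1 to 5 in heart, 2 to 6 in the mean over 4 tissues, 28 to 33 in testis, 2 to 3 in liver and 1 in muscle. Quantile normalization kept 67 of 71 named results on their side of the threshold, and the mean of all probe sets 61 of 71. Scalings moved the median of all genes by at most 0.06. Leaving out the probe sets that the platform marks as shared between transcripts moved Trim27 in testis to -0.15 (adjusted p = 0.322) and Trim28 there to 0.24 (adjusted p = 0.169). That setting left 68 of the 71 named results, because Trim2 and Trim45 have only such probe sets.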

Other observations

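Genes of the TRIM structure that carry other symbols were measured for 6 of a list of 7. Pml, the scaffold of nuclear bodies and an interferon-induced gene, rose in liver by 0.82 ± 0.22 (SE; limma adjusted p = 0.0402). In testis, Triml1, a spermatid-enriched gene, fell by 4.57 ± 0.15, Bspry by 2.24 ± 0.15 and Mid1, a microtubule-associated ligase, by 0.37 ± 0.15 (adjusted p = 0.0342).

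The 4 probe sets annotated to Trim60 and Trim61 together had group means between 2.28 and 3.30 in all 10 groups, and no difference between the genotypes exceeded 0.35 in size. The probe set annotated to Trim3 and Eef2 together read 3.98, 3.40 and 3.46 on knockout and 3.11, 3.07 and 3.08 on wild-type muscle arrays. These were not tested.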
